A study of Mus musculus with 8 samples.

Results

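The 9 genes described here encode enzymes of the tricarboxylic acid (TCA) cycle and of its itaconate branch: Acod1, Cs, Idh1, Idh2, Idh3a, Ogdh, Suclg1, Fh1 and Mdh2. They were taken by gene symbol from the 55487 mouse genes of the deposited table, each symbol matched 1 row, and all 9 were among the 11796 genes whose mean reached 1 TPM. RNA was sequenced from J774A.1 cells, a mouse macrophage line derived from a tumour, in 4 libraries given LPS (1 μg/mL) and 4 libraries given LPS (1 μg/mL) with UDCA (1 mM), all for 24 h. LPS, from the outer membrane of Gram-negative bacteria, activates macrophages, and ursodeoxycholic acid (UDCA) is a secondary bile acid. Both groups were given LPS and all cells were of 1 line, so the values compare levels under LPS, and cells without LPS were not analysed here. Groups and time are those of the labels, whereas the doses come from the study's methods, which describe the sequenced cells as given UDCA with LPS or without it. Nothing in the labels says whether the libraries of a group came from separate cultures, so p-values measure only the spread between these libraries. TPM, a length-normalised share of transcripts, divides the reads of a gene by its length and by definition scales each library to the same total. Levels can therefore be compared between genes, but the number of reads and its counting error are unknown.

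The TCA cycle oxidises acetyl groups in the mitochondrion and supplies reduced cofactors to the respiratory chain, and some of its steps have a separate enzyme in the cytosol. Macrophages activated by LPS are known to divert cis-aconitate, an intermediate between citrate and isocitrate, to itaconate through the enzyme encoded by Acod1. Itaconate inhibits succinate dehydrogenase and limits bacterial growth, and Acod1 is one of the genes that LPS induces most in these cells.

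Levels of 7 of the 9 genes were lower with LPS + UDCA than with LPS alone. Acod1 fell most, by 60.2% of its mean TPM, followed by Idh2 (50.9%), Mdh2 (46.5%), Idh3a (42.0%), Cs (35.3%), Suclg1 (26.9%) and Fh1 (18.3%). Idh1 and Ogdh did not pass the test. Differences were tested with limma on log2(TPM + 1) across the 11796 genes, with Benjamini-Hochberg adjustment over all of them (FDR). At an FDR under 0.05, 7 of the 9 genes were lower and 0 higher, where 32.3% of all genes tested were lower and 40.2% higher (72.5% in either direction). With a fold change of at least 2 as well, 2 of the 9 (Acod1 and Idh2) were lower, against 8.44% of all genes, and 0 were higher, against 8.71%. In the same 7 genes every LPS + UDCA library lay below every LPS library, as it did in 29.9% of all genes, and in 37.0% of all genes every LPS + UDCA library lay above. The median log2 fold change was -0.62 for the 9 genes and 0.08 for all genes tested. After median-of-ratios scaling, which moved the median of all genes to -0.02, all 9 genes were lower at an FDR under 0.05, as were 37.8% of all genes.

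**Figure D1:**
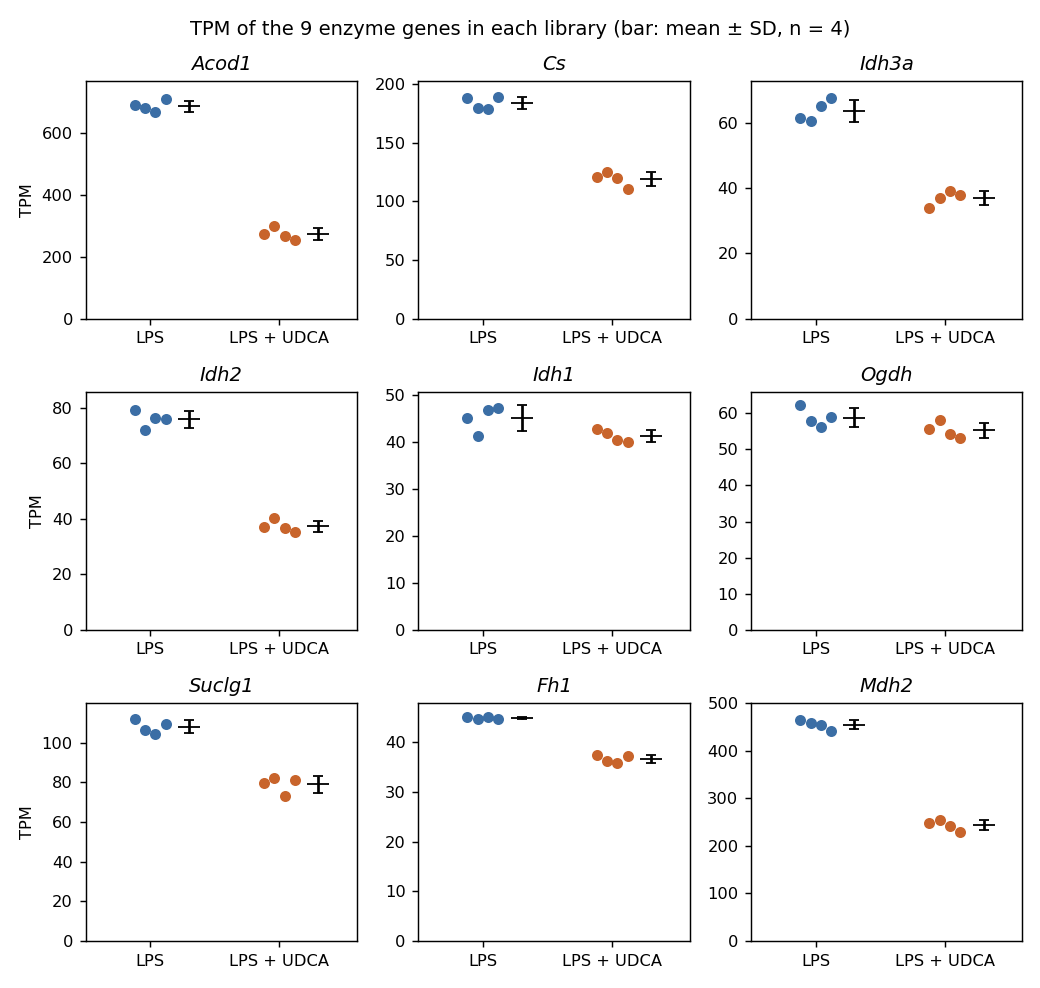
TPM of each gene (vertical axes, from 0) in each of the 8 libraries, with LPS libraries in blue, LPS + UDCA libraries in orange and a bar for the mean ± SD (n = 4) beside each group. The groups are separate in all panels except those of Idh1 and Ogdh.

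The libraries held no identical pair of columns among 28 pairs. Their listed TPM values summed to 973190 to 977485 with LPS and to 958918 to 962737 with LPS + UDCA, so the sums of the groups did not overlap. The reason for this difference was not tested. All 8 macrophage markers were present, from 15.25 TPM for Ptprc to 2040.52 TPM for Lyz2, while the 18 markers of epithelial cells, fibroblasts, T cells, B cells and endothelial cells reached at most 0.95 TPM. Of the macrophage markers 4 were higher and 4 lower with UDCA at an FDR under 0.05 from limma. Lyz2 was at 1848.05 to 2040.52 TPM with LPS and at 410.38 to 457.22 TPM with LPS + UDCA, while Adgre1 was at 41.4 to 51.04 and at 102.37 to 121.3 TPM. The summed level, of which Lyz2 was the largest part in every library, ran from 3100 to 3258 TPM with LPS and from 1221 to 1343 TPM with LPS + UDCA. The part of these markers in the results below was not tested. Transcripts encoded in the mitochondrial genome took 1.21% to 1.53% of TPM with LPS and 1.09% to 1.43% with LPS + UDCA, so the groups overlapped. In bulk RNA, fewer cells of a type and less RNA per cell cannot be told apart.

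Acod1, the cis-aconitate decarboxylase that makes itaconate, lies on chromosome 14 of GRCm38 from 103046977 to 103056573, with no other annotated gene over it and 0% of its 31-base words in another gene. In LPS replicates 1 to 4 it was at 690.08, 682.08, 666.95 and 708.92 TPM, and in LPS + UDCA replicates 1 to 4 at 273.91, 299.37, 268.06 and 253.35 TPM. Each treated library was thus below every LPS library by a wide margin. On the log2 scale Acod1 differed by -1.33 ± 0.049 (SE, n = 4 per group, limma adjusted p = 3.6e-08), and 4.99% of all genes tested had a lower log2 fold change. Even so, the mean over all libraries was above that of 97.5% of the genes tested, and Acod1 was the highest of the 9 genes in both groups. With LPS its libraries lay above those of Mdh2, the next gene, whereas with LPS + UDCA the ranges of the 2 genes overlapped (253.35 to 299.37 against 230.34 to 254.64 TPM).

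The window from 250 bases before to 50 bases after the RefSeq start of Acod1 is printed. It held TATAAA and had the lowest G + C content of the windows of these genes. RefSeq promoter windows on GRCm38.p6 matched 8 of the 9 genes by symbol (Idh3a is the other). Capitals mark matches, on either strand, to the TATA box (TATAAA), the CCAAT box, the GC box (GGGCGG), the nuclear receptor half-site written AAGGTCA, the STAT-type TTCNNNGAA or the NF-kB consensus. The Acod1 window is chr14:103046762-103047061, plus strand.
Acod1: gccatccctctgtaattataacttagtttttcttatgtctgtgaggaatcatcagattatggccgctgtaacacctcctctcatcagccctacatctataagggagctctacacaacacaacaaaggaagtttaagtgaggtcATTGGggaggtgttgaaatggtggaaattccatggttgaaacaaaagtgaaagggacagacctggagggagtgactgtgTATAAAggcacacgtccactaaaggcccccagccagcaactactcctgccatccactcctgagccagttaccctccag
TATAAA stood at -28 to -23 and CCAAT, on the opposite strand, at -107 to -103, where 0 is the RefSeq start. The gene span given above begins upstream of that start, at 103046977, so that TATAAA lies within it. Acod1 alone held TATAAA among the 8 genes with a window, near the share of 13.6% among 32841 RefSeq windows. Its G + C content of 47.0% was the lowest of the 14 windows of these genes (up to 72.3% for a start of Ogdh), with a median of 52.7% over all RefSeq windows. The window of Suclg1 (51.0%) and those of other Ogdh starts (49.3% and 50.3%) also lay below that median. The letters of the NF-kB consensus, found in 8.46% of all windows, were not in the Acod1 window. The Suclg1 window held none of these motifs.

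To see which genes varied most like Acod1, Pearson's r of log2(TPM + 1) over the 8 libraries was computed for the 7071 other genes whose mean reached 10 TPM. The 5 highest were Cxcl2 (0.99968), Tatdn2 (0.99961), Ehd2 (0.99958), Ccl3 (0.99929) and Tnf (0.99925). Cxcl2 and Ccl3 encode chemokines and Tnf a cytokine, all known to be induced by LPS, Ehd2 encodes a membrane-bending ATPase, and Tatdn2 a nuclease of the TatD family. Cxcl2 was at 1858 ± 49.2 TPM (SD, n = 4) under LPS alone and 700.3 ± 46.4 TPM under LPS + UDCA, and Tatdn2 at 39.7 ± 1.16 and 10.9 ± 1.02 TPM. These correlations are a description and rest mostly on the difference between the groups, which all points share. Around the group means, where only the spread between replicates is left, r with Acod1 was 0.968 for Cxcl2, 0.961 for Tatdn2, 0.966 for Ehd2, 0.94 for Ccl3 and 0.919 for Tnf, which were picked for a high r over these same libraries. For the enzyme genes, not picked by r, it was 0.901 for Cs, 0.777 for Idh2, 0.747 for Ogdh, 0.718 for Mdh2, 0.361 for Suclg1, 0.322 for Idh1, -0.083 for Idh3a and -0.374 for Fh1 over the 8 libraries.

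Entry of acetyl groups into the cycle is catalysed by citrate synthase, encoded by Cs on chromosome 10 from 128337734 to 128362479. Its TPM was 187.67, 179.97, 178.34 and 188.74 in LPS replicates 1 to 4 and 120.67, 124.78, 119.83 and 110.39 in LPS + UDCA replicates 1 to 4. All treated libraries were below all LPS libraries, and the difference was -0.62 ± 0.044 (SE) in log2 units (limma adjusted p = 1.6e-06). A snoRNA gene, Gm23182, lies within Cs on the same strand, and 5.97% of its 31-base words occur in other genes, most often in Csl, a citrate synthase-like gene.

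Isocitrate is oxidised to oxoglutarate by 3 kinds of enzyme. IDH3, the NAD-dependent enzyme of the cycle, is built of subunits encoded by Idh3a, Idh3b and Idh3g, whereas IDH2 in the mitochondrion and IDH1 in the cytosol use NADP. Idh3a, on chromosome 9 from 54586334 to 54604661, was at 61.41, 60.55, 65.14 and 67.64 TPM with LPS and at 33.99, 36.95, 39.08 and 37.75 TPM with LPS + UDCA. The groups did not overlap, at a log2 difference of -0.77 ± 0.056 (SE, limma adjusted p = 2.1e-06).
Idh2, on chromosome 7 from 80094846 to 80115392, was at 79.26, 71.79, 76.38 and 75.89 TPM with LPS and at 37.16, 40.08, 36.62 and 35.12 TPM with LPS + UDCA. The groups stood far apart. Their log2 difference of -1.01 ± 0.051 (SE, limma adjusted p = 2.2e-07) lay at the 2-fold limit, and it was -0.99 with quantile normalization, -0.99 without LPS replicate 1, -0.9997 without LPS + UDCA replicate 3 and -0.98 without LPS + UDCA replicate 4, each just short of that limit. Gm45203 overlaps Idh2 on the same strand.
Idh1, on chromosome 1 from 65158616 to 65186500, was at 45.08, 41.21, 46.80 and 47.25 TPM with LPS and at 42.75, 41.83, 40.38 and 40.08 TPM with LPS + UDCA. The groups overlapped through LPS replicate 2, the lowest of its group. The log2 fold change was -0.12 with a 95% interval of -0.24 to -0.01 (adjusted p = 0.058 from limma, and p = 0.086 by a 2-sided exact permutation test). Without LPS replicate 2 it was -0.17 (adjusted p = 0.013 from limma), with median-of-ratios scaling -0.23 (adjusted p = 0.00505), and with quantile normalization -0.14 (adjusted p = 0.0448).

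The windows of Idh2, which fell by about 2-fold, and Idh1, which did not pass the test, are shown for comparison because the 2 genes encode enzymes of the same reaction. The Idh2 window is chr7:80115301-80115600 and that of Idh1 is chr1:65186430-65186729, both on the minus strand and written 5′ to 3′ along the gene, with the same motifs in capitals. A second RefSeq start of Idh1 is not printed. Both gene spans given above reach upstream of the RefSeq starts of the printed windows, so that bases just before 0 lie within them.
Idh2: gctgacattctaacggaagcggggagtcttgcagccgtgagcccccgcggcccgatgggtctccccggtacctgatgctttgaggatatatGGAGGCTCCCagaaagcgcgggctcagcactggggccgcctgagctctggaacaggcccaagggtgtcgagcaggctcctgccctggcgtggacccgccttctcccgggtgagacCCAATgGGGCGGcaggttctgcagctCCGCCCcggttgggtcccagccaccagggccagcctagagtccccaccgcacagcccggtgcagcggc
Idh1: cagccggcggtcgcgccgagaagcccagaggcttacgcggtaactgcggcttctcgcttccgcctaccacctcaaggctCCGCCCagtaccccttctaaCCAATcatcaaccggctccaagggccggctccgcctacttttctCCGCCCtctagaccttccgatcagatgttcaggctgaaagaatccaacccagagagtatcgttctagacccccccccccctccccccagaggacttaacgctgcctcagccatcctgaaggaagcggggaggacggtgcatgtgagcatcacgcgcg
Both printed windows held CCAAT and GGGCGG, which 37.4% and 35.7% of all RefSeq windows held. Each motif occurred in 6 of the 8 genes, counting a gene with a match in any of its windows. The second Idh1 window held GGGCGG but not CCAAT. In Idh2, CCAAT stood at -44 to -40 and GGGCGG at -38 to -33, and a match to the NF-kB consensus stood on the opposite strand at -159 to -150. Ogdh was the other gene of the set with that consensus, and the only one with AAGGTCA, which 4.72% of all windows held. TTCNNNGAA, held by 8.3% of all windows, was found in 0 of the 8 genes. These matches describe letters and not binding.

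Oxoglutarate dehydrogenase, encoded by Ogdh on chromosome 11 from 6291633 to 6356642, turns oxoglutarate into succinyl-CoA. It was at 62.26, 57.89, 56.22 and 58.84 TPM with LPS and at 55.54, 58.01, 54.23 and 53.18 TPM with LPS + UDCA, so the groups overlapped. The log2 difference was -0.09 with a 95% interval of -0.19 to 0.01 (adjusted p = 0.11 from limma, and p = 0.086 by a 2-sided exact permutation test). With median-of-ratios scaling it was -0.20 (adjusted p = 0.0012 from limma). Of its partners in the complex, Dlst fell slightly, from 103.5 ± 3.14 to 92.4 ± 2.33 TPM (log2 fold change -0.16, adjusted p = 0.0031 from limma), a call lost with quantile normalization (-0.08, adjusted p = 0.0548). Dld, the shared dihydrolipoamide dehydrogenase, rose from 59.6 ± 4.11 to 89.5 ± 7.48 TPM (log2 fold change 0.58, adjusted p = 5.7e-05 from limma).

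Suclg1 encodes the subunit common to both forms of succinyl-CoA ligase, and lies on chromosome 6 from 73248382 to 73276911. It was at 112.11, 106.32, 104.52 and 109.11 TPM with LPS and at 79.58, 82.32, 72.83 and 81.00 TPM with LPS + UDCA, with no overlap. In log2 units Suclg1 differed by -0.45 ± 0.046 (SE, limma adjusted p = 2.1e-05). The partner subunits did not follow it. Sucla2, of the ATP-forming enzyme, rose from 26.8 ± 0.541 to 37.2 ± 1.73 TPM (log2 fold change 0.46, adjusted p = 1.8e-05 from limma), and Suclg2, of the GTP-forming enzyme, was at 23.4 ± 1.18 and 23.2 ± 2.40 TPM (95% interval of the log2 fold change -0.18 to 0.16). Suclg2 shares 20.7% of its words with other genes. Within a library the ratio of Suclg1 to Sucla2 was 3.95 to 4.24 with LPS and 1.91 to 2.32 with LPS + UDCA, a ratio chosen after its values were seen.

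Fumarase, encoded by Fh1 on chromosome 1 from 175600374 to 175625635, hydrates fumarate to malate. It was at 45.08, 44.80, 45.15 and 44.70 TPM with LPS and at 37.48, 36.28, 35.81 and 37.19 TPM with LPS + UDCA. The fall was the smallest of the 7 (-0.29 ± 0.036 in log2 units, SE, limma adjusted p = 8.1e-05), yet the groups stayed well apart because the LPS libraries differed by less than 1 TPM. The gene Kmo overlaps Fh1 on the opposite strand.
Mdh2, the mitochondrial malate dehydrogenase that closes the cycle, lies on chromosome 5 from 135778480 to 135790398. Its TPM was 464.46, 459.57, 455.00 and 442.33 with LPS and 248.51, 254.64, 241.32 and 230.34 with LPS + UDCA. The lowest LPS library was thus far above the highest treated one, at a log2 difference of -0.90 ± 0.037 (SE, limma adjusted p = 6.3e-08). It was -1.01 with median-of-ratios scaling, past the 2-fold limit. Mdh2 was the second highest of the 9 genes in both groups, and its mean was above that of 96.6% of the genes tested.

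**Figure D2:**
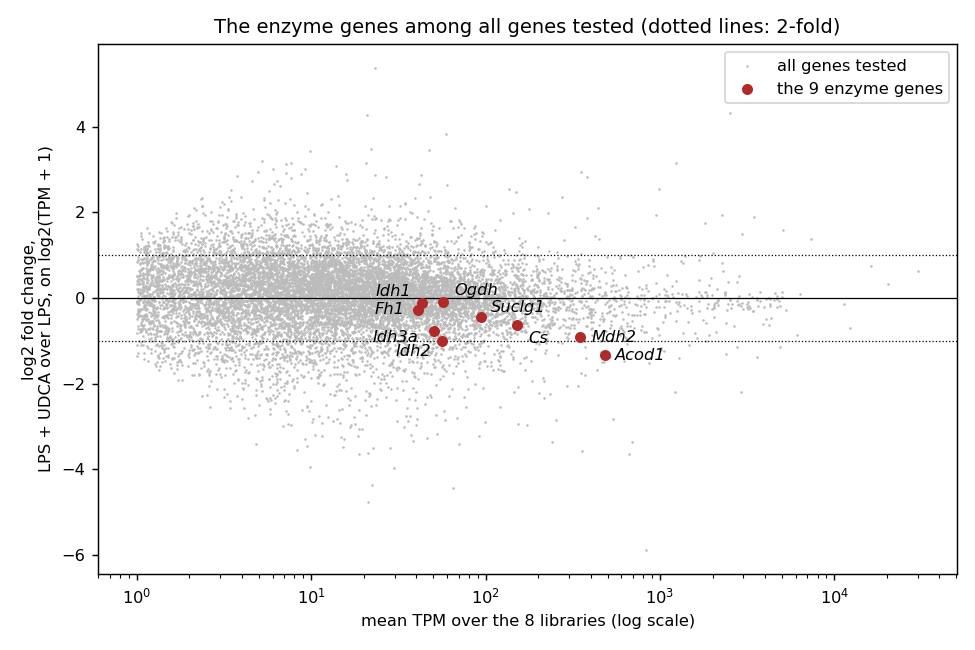
Each point is a gene tested, by its mean TPM over the 8 libraries (horizontal, log scale) and its log2 fold change of LPS + UDCA over LPS on log2(TPM + 1) (vertical), with the 9 enzyme genes in red. Acod1 and Mdh2 are the most abundant of the 9, and all 9 genes lie below 0, from -1.33 for Acod1 to -0.09 for Ogdh.

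The order of the levels changed little at the top and collapsed at the bottom. With LPS, Acod1, Mdh2, Cs, Suclg1 and Idh2 followed each other without overlap between neighbours, while Idh3a overlapped Ogdh, and Idh1 overlapped Fh1. With LPS + UDCA, Ogdh and Idh1 stood above Idh2, and the ranges of Idh1, Idh2, Idh3a and Fh1 each overlapped that of the next gene. In the fold changes, the 95% interval of Acod1 (-1.44 to -1.22) did not meet that of Idh2 (-1.12 to -0.89), whereas every later neighbour in the order overlapped the one before. The sum of the 8 cycle enzymes without Acod1 was 1022.1 to 1057.3 TPM with LPS and 625.0 to 674.9 TPM with LPS + UDCA.

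To compare enzymes that share a reaction or a substrate, the log2 ratio of their TPM within each library was set between the groups for 3 pairs, a measure that does not depend on the scaling of a library. Each of the 3 ratios was apart between the groups in all libraries (2-sided exact permutation test, p = 0.029 each and 0.029 after adjustment over the 3, the smallest p that the 70 arrangements allow). All 3 were higher with LPS + UDCA. Cytosolic Mdh1 over mitochondrial Mdh2 was 0.295 to 0.338 with LPS and 0.716 to 0.824 with LPS + UDCA, a difference of 1.29 on the log2 scale. Mdh1 itself rose, from 142.1 ± 6.53 to 185.5 ± 4.24 TPM (log2 fold change 0.38, adjusted p = 2.1e-05 from limma). Idh1 over Idh2 was 0.569 to 0.623 with LPS, so that Idh2 was the more abundant, and 1.04 to 1.15 with LPS + UDCA, where Idh1 was (0.90 on the log2 scale). For Idh1 over Idh3a the ranges were 0.681 to 0.734 and 1.03 to 1.26 (0.66 on the log2 scale).

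**Figure D3:**
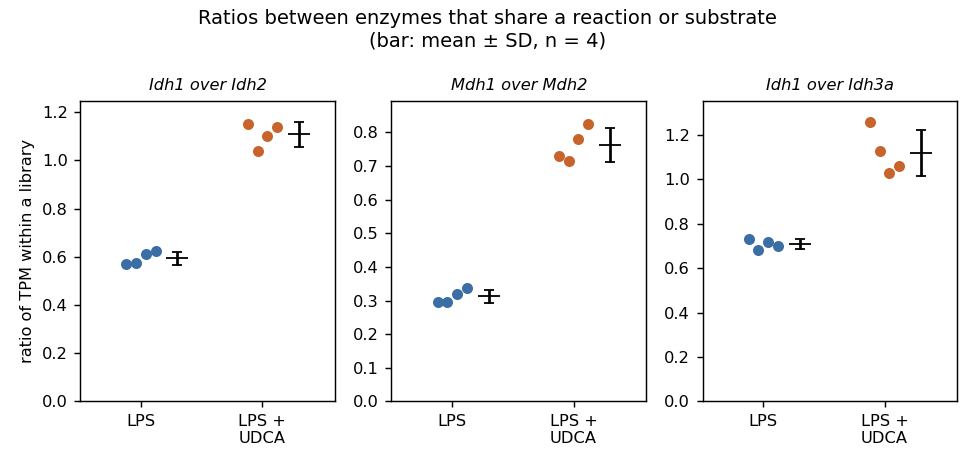
Ratio of the TPM of 2 enzymes within each library (vertical axes, from 0) for the 3 pairs, with LPS libraries in blue, LPS + UDCA libraries in orange and the mean ± SD (n = 4) beside them. Each of the 3 ratios is higher in all 4 LPS + UDCA libraries.

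The rest of the pathway was examined in 58 genes on 7 lists, of which 51 passed the filter on low values. Of these 51 genes, 22 (43.1%) were lower and 15 (29.4%) higher at an FDR under 0.05 from limma, beside 32.3% and 40.2% of all genes tested, with a median log2 fold change of -0.04. Among the other subunits of the cycle, 7 of 10 tested genes were lower, where 32.3% of all genes were, and 2 higher, where 40.2% were (median -0.22). Both remaining IDH3 subunits fell, Idh3g from 151.6 ± 2.92 to 82.7 ± 4.93 TPM (log2 fold change -0.87, the lowest of this list) and Idh3b from 142.7 ± 2.42 to 117.6 ± 5.78 TPM (-0.28). Idh3a was thus the least abundant of the 3 IDH3 transcripts in both groups. All 4 subunits of succinate dehydrogenase, the enzyme that itaconate inhibits, were lower, from Sdhd (201.2 ± 7.05 to 125.4 ± 2.24 TPM, log2 fold change -0.68) to Sdhb (180.7 ± 1.64 to 160.7 ± 2.96 TPM, -0.17). Ogdhl, a relative of Ogdh, had at most 0.09 TPM in any library.

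The list for pyruvate entry holds the mitochondrial pyruvate carrier and the pyruvate dehydrogenase complex with its kinases and phosphatases. Of its 11 tested genes, 2 (18.2%) were lower, against 32.3% of all genes (median 0.00). Another 4 (36.4%) were higher, close to the 40.2% of all genes. With median-of-ratios scaling 5 were lower, and the share of all genes lower was then 37.8%. Pdk3, an inhibitory kinase of the complex, had the deepest fall (-0.59 in log2 units), being at 24.2 ± 1.28 TPM under LPS and 15.7 ± 0.672 TPM under LPS + UDCA. Pdpr, the regulatory subunit of its phosphatase, rose most, from 2.52 ± 0.448 to 5.13 ± 0.419 TPM (0.81).
Of 8 tested mitochondrial enzymes that fill or drain the cycle, 3 (37.5%) were lower, near the 32.3% of all genes (median -0.01). A further 1 (12.5%) was higher, against 40.2% of all genes. Me2, the mitochondrial malic enzyme, fell from 61.6 ± 3.91 to 24.8 ± 1.40 TPM (log2 fold change -1.28, adjusted p = 1.4e-07 from limma). Me3, another mitochondrial malic enzyme, was the 1 called higher, at 6.997 ± 1.32 and 9.987 ± 2.003 TPM (0.46, adjusted p = 0.025), a call lost with 3 of the 7 settings that kept all libraries and when any of 4 libraries was left out: without LPS replicate 1 (adjusted p = 0.056), LPS replicate 2 (0.064), LPS + UDCA replicate 2 (0.050) or LPS + UDCA replicate 4 (0.0634).

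Among cytosolic isozymes and carriers of cycle acids, 6 of 10 genes were lower and 2 higher (median -0.37), against 32.3% and 40.2% of all genes. Slc25a10, the mitochondrial dicarboxylate carrier, had the largest log2 fold change of the 51 tested genes on log2(TPM + 1), going from 28.37, 25.21, 26.51 and 22.67 TPM with LPS to 5.96, 6.91, 5.81 and 5.41 TPM with LPS + UDCA. All treated libraries were below 7 TPM (-1.93 ± 0.088 in log2 units, SE, limma adjusted p = 1.2e-07). An antisense gene, Gm11788, overlaps it, and the strand setting of the counting is not given in the sources used here. Me1, the cytosolic malic enzyme that makes NADPH, rose from 24.98 ± 1.24 to 51.99 ± 2.33 TPM (log2 fold change 1.03, and 0.92 with median-of-ratios scaling), although 36.9% of its words occur in other genes. Within a library Me1 over Me2 was 0.398 to 0.412 with LPS and 1.94 to 2.33 with LPS + UDCA, a ratio chosen after its values were seen.

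Genes for the assembly of succinate dehydrogenase and for lipoate attachment, which Dlst and Dlat need, were lower in 3 of 7 and higher in 3 of 7 cases (42.9% each, near the 32.3% and 40.2% of all genes, median 0.10). The number higher was 1 when any library but LPS + UDCA replicate 3 was left out, and 2 without that one. Lias, the lipoic acid synthase, rose from 19.9 ± 1.26 to 30.2 ± 2.04 TPM (log2 fold change 0.57) and Sdhaf2 fell from 27.8 ± 2.44 to 19.9 ± 2.28 TPM (-0.46). Sdhaf1 and Sdhaf3, the other 2 called higher (adjusted p = 0.043 and 0.046 from limma), lost the call in most alternatives. Sdhaf1 lost it when any of 7 of the 8 libraries was left out and Sdhaf3 when any of the 8 was, and both did with median-of-ratios scaling (0.141 and 0.0933), quantile normalization (0.183 and 0.246) and the replicate number as a block (0.0543 and 0.116). Both have under 6 TPM in every library. For Sdhaf1, 69.9% of its words occur in other genes, most often in E130208F15Rik, which overlaps it on the opposite strand.
Of 6 genes on the list for itaconate handling and metabolite receptors, 3 passed the filter. Clybl, a citramalyl-CoA lyase of itaconate breakdown, fell from 7.68 ± 0.689 to 5.45 ± 0.188 TPM (log2 fold change -0.43, adjusted p = 0.00078 from limma). Mmut, the methylmalonyl-CoA mutase, was at 7.31 ± 0.617 and 9.31 ± 1.2 TPM (0.31, adjusted p = 0.018), a call lost with median-of-ratios scaling (0.076), with quantile normalization (0.057), without LPS replicate 4 (0.051) and without LPS + UDCA replicate 3 (0.051). Oxgr1, a receptor of oxoglutarate, was listed at 0 in all libraries, and Sucnr1, the succinate receptor, reached 0.48 TPM in LPS replicate 1 and was listed at 0 in 6 libraries.
Both genes on the list for repair of unwanted metabolites rose at an FDR under 0.05 (median 1.16), where 40.2% of all genes tested were higher. Fahd1, an oxaloacetate decarboxylase, was at 4.06, 4.79, 4.58 and 5.87 TPM with LPS and at 13.27, 14.20, 15.04 and 17.31 TPM with LPS + UDCA, the largest rise of the 51 tested genes on that scale (1.46 ± 0.111 in log2 units, SE, limma adjusted p = 2.8e-06). Hagh overlaps Fahd1 on the opposite strand. D2hgdh, a 2-hydroxyglutarate dehydrogenase, rose from 9.44 ± 1.28 to 17.8 ± 1.53 TPM (log2 fold change 0.85).

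**Figure D4:**
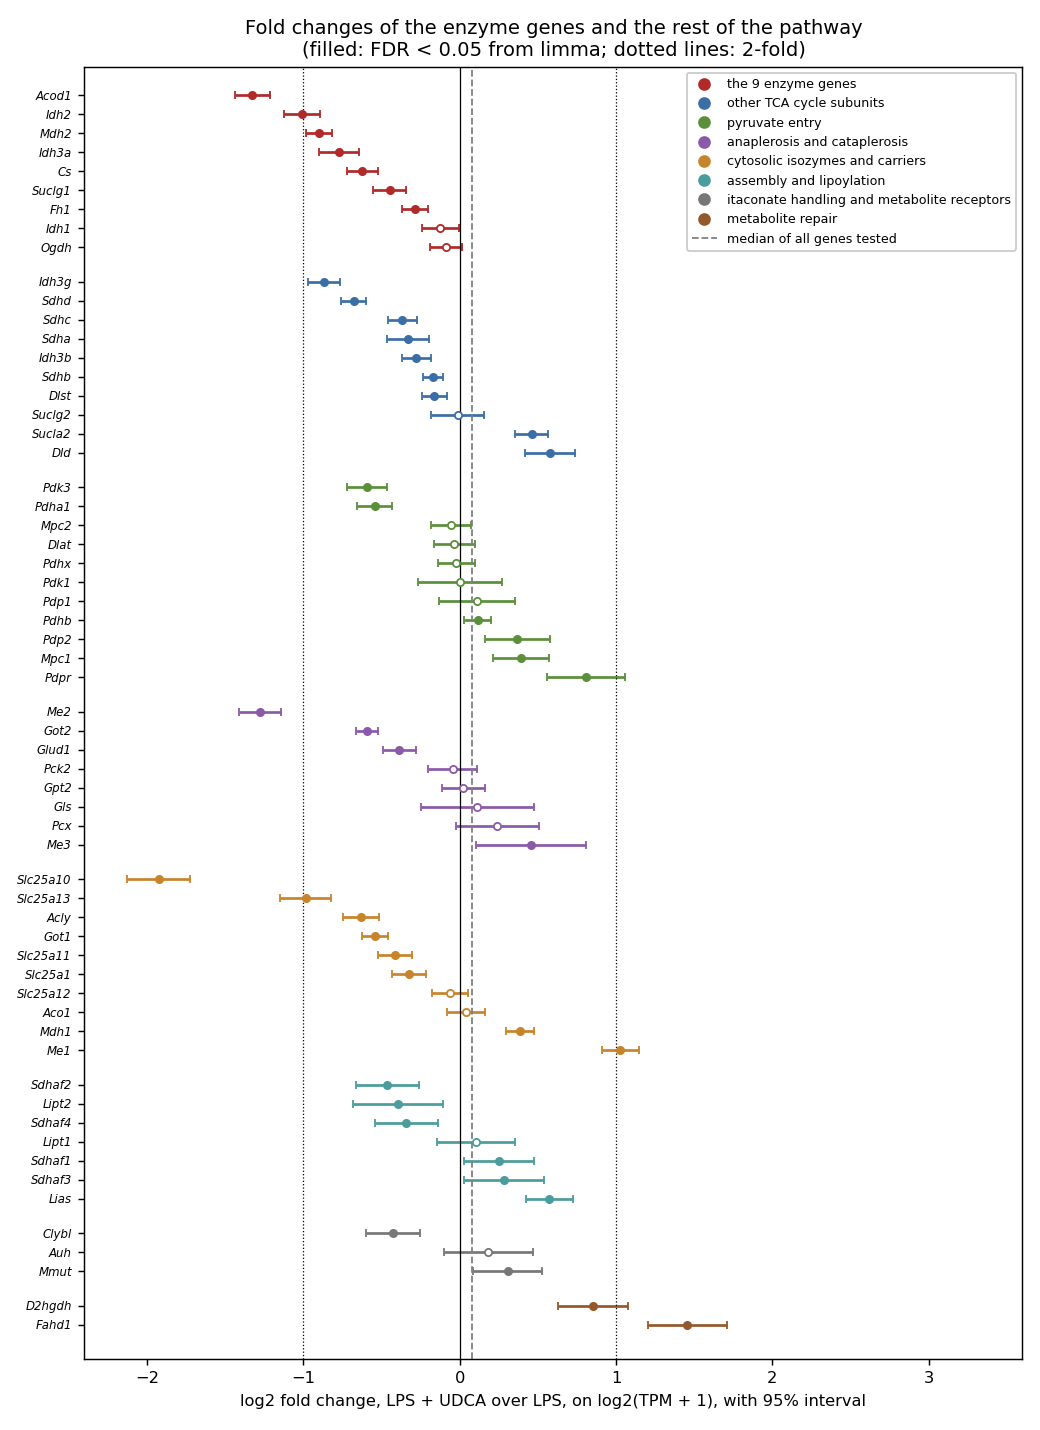
Log2 fold change of LPS + UDCA over LPS on log2(TPM + 1) (horizontal axis) with its 95% interval from limma for the 9 enzyme genes and the 51 tested genes of the 7 lists, filled where the FDR was under 0.05, with dotted lines at 2-fold and a dashed line at the median of all genes tested (0.08). All 9 genes lie left of 0, while the lists hold genes on both sides, from Slc25a10 at -1.93 to Fahd1 at 1.46.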

How the data were processed

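RNA of J774A.1 cells was sequenced on an Illumina HiSeq instrument from TruSeq libraries, with 4 libraries per group by the labels. The authors deposited 1 table of TPM per gene and library, the unit being inferred from column sums just under 1000000. The submitters' processing notes name Bowtie 0.12.2 and mm10/GRCm38, and the counting program, annotation and test are not given in the sources used here. Read depth cannot be had from TPM, and counting error was left out.

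Genes averaging 1 TPM or more over the 8 libraries (11796) were fitted as log2(TPM + 1) with limma 3.58.1 (trend, R 4.3.3), and calls were made at an FDR under 0.05, with and without the 2-fold minimum of the study. Ratios were compared by exact permutation tests over 70 arrangements. Positions are from GENCODE M21 (GRCm38), in which 55227 of the 55487 identifiers were found. Words of 31 bases were compared between transcripts of different genes. The fit was tested on simulated data. Alternatives covered pseudocount, filter, scaling, variance trend, replicate block and leaving out each library.

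The 9 genes, the lists and the motifs were chosen with earlier results of these data known. Another 2 motifs, of the NRF1 and interferon-response types, were searched and had no match in the 8 genes with a window. Text names all 9 genes, the highest and lowest member past the FDR in each list, the genes of the ratios and the 5 genes most like Acod1. Some genes of the lists and the ratios that need them are not reported here. Other genes (the remaining cycle subunits, Sdhaf1, Sdhaf3, Ogdhl, Oxgr1, Sucnr1) were named after their values were seen. Python 3.11.15, pandas 2.3.3, scipy 1.17.1 and matplotlib 3.10.9 were used.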

Additional observations from a re-analysis of the deposited data

Results flagged for a closer look

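For a set of genes of the cycle and its lists, and ratios between them, the most extreme library was compared with the next. Their distance was taken as a share of the spread within the group of 4. Dixon's 95% limit was exceeded in 2 of 84 such sets, where chance gives about 4.2. The ratio of Suclg1 to Sucla2 was highest in LPS replicate 1, at 4.242 (a share of 0.899), and that of Idh3g to Idh3b was lowest in LPS replicate 3, at 1.049 (0.918). None of the 9 enzyme genes had such a library in its TPM. Not every gene named above was included. Lyz2, left out of these sets, was at 1848.05 TPM in LPS replicate 1 and at 2025.69 to 2040.52 TPM in the other LPS libraries. By the same rule that gap would also exceed the limit.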

How the results depend on the processing

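Over 15 alternatives, Acod1, Cs, Fh1, Idh2, Idh3a, Mdh2 and Suclg1 stayed lower at an FDR under 0.05. Their log2 fold changes ranged from -1.44 to -1.20, -0.73 to -0.55, -0.39 to -0.27, -1.11 to -0.98, -0.88 to -0.73, -1.01 to -0.78 and -0.56 to -0.37, in that order. The number of the 9 genes lower by 2-fold was 3 with median-of-ratios scaling, 1 with quantile normalization and 1 to 2 when a library was left out. In the main fit 2 of the 51 tested list genes were higher by 2-fold and 2 lower, beside 8.71% and 8.44% of all genes. The number higher was 1 with median-of-ratios scaling and 3 with a pseudocount of 0.1. The number lower was 3 with median-of-ratios scaling, quantile normalization or a pseudocount of 0.1, and 2 to 3 when a library was left out. In 35 genes of the text and lists, 482 of 524 values kept their direction and side of the threshold. Suclg2 changed sign without LPS replicate 4 (0.0081), LPS + UDCA replicate 1 (0.026) or LPS + UDCA replicate 2 (0.0141), within a range of -0.0775 to 0.026 when a library was left out, all short of the threshold. With 1 library left out, the log2 differences of the ratios were 0.88 to 0.93 (Idh1 over Idh2), 1.25 to 1.33 (Mdh1 over Mdh2) and 0.60 to 0.70 (Idh1 over Idh3a), where the exact permutation p cannot go below 0.057.

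The groups share replicate numbers. Deviations from the group means correlated by -0.035 to 0.146 for the 4 same-numbered pairs and by -0.145 to 0.162 for the 12 others. Of the 8 libraries, 5 correlated best with their own number. These values do not settle whether the numbers pair the samples, and the main fit did not pair them. With replicate number added as a block, 7 of the 9 genes were lower and 0 higher, with 22 and 12 of the list genes, where 31.7% of all genes were lower and 39.3% higher. The ratios of paired libraries differed by 0.90, 1.29 and 0.66 on the log2 scale in the order above (exact sign-flip test, p = 0.125 each, the smallest that 4 pairs allow). The depth of the libraries is unknown, which limits low genes such as Sdhaf3 and Clybl most. Causes of these shifts were not tested.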

Other observations

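Nuclear-encoded subunits of the respiratory chain, which takes up the reduced cofactors of the cycle, were taken by symbol (Nduf, Uqcr, Cox4 to Cox8 and Atp5) after other values had been seen. Of 76 tested, 45 were lower and 16 higher at an FDR under 0.05 from limma (32.3% and 40.2% of all genes tested), with a median log2 fold change of -0.20, against -0.62 for the 9 enzyme genes.

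Within the LPS + UDCA group, replicate 2 had the highest TPM in 6 of the 9 enzyme genes and replicate 4 the lowest in 6 of 9. Within the LPS group, replicates 1 and 4 were each highest in 4 of 9.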
